A study of Mus musculus with 9 samples.

Results

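The genes described here are 10 genes of the circadian clock: Nr1d1, Nr1d2, Dbp, Tef, Per1, Per2, Per3, Arntl, Bhlhe40 and Cry1. They were chosen by name, with earlier results of these data known, so their counts beside the shares of all probe sets are descriptive. Every probe set whose only gene symbol in the array's probe annotation was one of these names was taken. That gave 12 of the 12488 probe sets on the array, for 10 of the 8251 genes it names. All 9 genes other than Cry1 have 1 probe set, and Cry1 has 3. A probe set was tested where its intensity exceeded 44.7, used as the detection limit, on at least 3 of the 9 arrays. This held for 10 of the 12 clock probe sets, 1 for each gene, and for 7920 probe sets in all. The remaining 2 probe sets of Cry1 (161225_r_at and 94421_r_at) lay below the limit on all 9 arrays and were not tested.

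Lung total RNA of C57BL6 mice from an asthma model was measured on Affymetrix mouse expression arrays, 3 per group. The first group had been challenged with OVA (ovalbumin, an egg-white protein that serves as allergen) and also received an agonist that acts on EP3, which is 1 of the receptors for prostaglandin E2. The second had been challenged with OVA alone, and the third with saline. Array titles give 24 h for the groups with OVA and no time for saline. All 3 groups belong to the same model, and no genotype other than C57BL6 is named. The labels do not state the agonist's dose or timing, the hour of day at which lungs were taken, or whether the 3 arrays of a group come from 3 mice. The spread behind the p-values is that of these samples, and it may be technical. Arrays are called by their group and the replicate number of their title.

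In mammals the clock is a feedback loop that runs in nearly every cell, lung cells included. ARNTL (also called BMAL1) pairs with CLOCK, binds DNA elements called E-boxes and switches on the period (Per) and cryptochrome (Cry) genes, whose proteins then shut the pair down. The same pair switches on Nr1d1 and Nr1d2, which encode the nuclear receptors REV-ERB alpha and beta. These repress Arntl through another element, the RORE. It also switches on Dbp and Tef, whose proteins activate genes that carry the D-box element. RNA of Nr1d1, Dbp and the period genes peaks and falls over the day, and that of Arntl runs opposite.

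Those elements can be seen in the promoters of the genes themselves. The windows printed here hold the element matches found in the promoter sequences of the clock genes, taken from RefSeq (build GRCm38.p6), which cover 250 bases before a gene's start and 50 after it. Of the 10 genes, 8 have 1 or more such promoters, 11 in all. Bhlhe40 and Per2 have none there. Both strands were searched for the E-box CACGTG, the E-prime-box CACGTT, the D-box TTATGTAA or TTACGTAA, the RORE TAGGTCA or TGGGTCA, and the cyclic AMP element TGACGTCA. The E-box and the E-prime-box share 5 letters but cannot match at the same place. Sequences run 5′ to 3′ on the gene's strand, and capitals mark the matched letters.
Nr1d1, chr11:98775378-98775440, minus strand, E-prime-box read from the other strand: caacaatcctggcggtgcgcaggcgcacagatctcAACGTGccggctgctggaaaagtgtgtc
Tef, upstream start, chr15:81802511-81802586, plus strand, E-box: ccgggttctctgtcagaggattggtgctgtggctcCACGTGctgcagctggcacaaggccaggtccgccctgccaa
Tef, downstream start, chr15:81811241-81811316, plus strand, E-box: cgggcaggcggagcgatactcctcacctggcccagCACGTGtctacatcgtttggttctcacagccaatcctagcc
Per1, chr11:69098748-69098823, plus strand, E-box: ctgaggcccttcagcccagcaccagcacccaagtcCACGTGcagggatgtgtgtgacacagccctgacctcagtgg
Per3, chr4:151044781-151044905, minus strand, D-box, 2 copies: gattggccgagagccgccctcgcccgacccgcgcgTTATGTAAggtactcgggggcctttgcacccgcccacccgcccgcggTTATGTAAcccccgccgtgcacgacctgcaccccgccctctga
Cry1, chr10:85185074-85185168, minus strand, E-prime-box read from the other strand and E-box: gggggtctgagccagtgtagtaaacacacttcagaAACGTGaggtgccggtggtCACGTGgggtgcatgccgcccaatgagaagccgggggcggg
Arntl, chr7:113207530-113207558, plus strand, RORE: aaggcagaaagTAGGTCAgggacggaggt

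The match in Nr1d1 begins 28 bases before the start. Those in Tef begin 127 and 138 bases before the upstream and the downstream start, and that in Per1 begins 166 bases before. Per3 holds its 2 copies 205 and 158 bases before the start, and Cry1 its 2 elements 79 and 60 bases before. The match in Arntl lies at base 31 after the start. Of all 32851 mouse promoters of this length, 7.15% hold the E-box, 4.68% the E-prime-box, 1.06% the D-box and 6.45% the RORE. The cyclic AMP element, held by 1.79% of them, matched in 0 promoters of the clock genes. The single windows of Nr1d2 and Dbp held 0 matches, as did 1 of the 2 promoters of Per1 and 1 of the 2 of Arntl. This says only that these letters are not in those windows. The matches are a description of sequence and were set against no measurement.

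Before the values, the state of the arrays matters for 1 of them. On each array 59.6% to 60.6% of the probe sets exceeded the detection limit. The 4 alveolar type 2, 3 club cell, 4 alveolar type 1 and 10 endothelial markers on the array each exceeded it on at least 1 array, as the label lung requires. Agonist replicate 3 stood apart from its group: on the leading principal component (36.1% of the variance) it lay at 11, with agonist replicates 1 and 2 at −24 and −22.7, the OVA arrays at 29.6 to 44.5 and the saline arrays at −30.9 to −21.1. The changes and spreads that rest on it are given with and without it. The log2 ratio of 3′ to 5′ signal of beta-actin, which rises as RNA is degraded, was 0.57 to 0.59 on the agonist arrays, 0.42 to 0.50 on the OVA arrays and 0.42 to 0.53 on the saline arrays. That of Gapdh was 0.15 to 0.21 on the agonist, 0.11 to 0.15 on the OVA and 0.11 to 0.20 on the saline arrays. Its part in the comparisons with the agonist arrays was not tested.

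In OVA lung, 3 of the 10 clock genes fell relative to saline lung: Nr1d1 by 2.47-fold, Dbp by 1.9-fold and Tef by 1.82-fold. None rose. All 3 genes are switched on by the ARNTL and CLOCK pair, but so are Nr1d2, Per1, Per2, Per3 and Cry1, which did not pass. Of all tested probe sets, 4.42% fell and 5.08% rose in this comparison. The arrays of the OVA group lay below all saline arrays for 7 clock genes, where 22.0% of all probe sets did so, and above them for 1, Bhlhe40, where 15.5% did. In agonist lung, 2 of the 10 passed the test against OVA lung: Nr1d1 was 1.95-fold higher and Bhlhe40 1.75-fold lower. Between agonist and saline lung none of the 10 passed the test. The hour of day of collection is not stated for any group, so a difference in hour cannot be told apart from challenge or agonist.

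**Figure D1:**
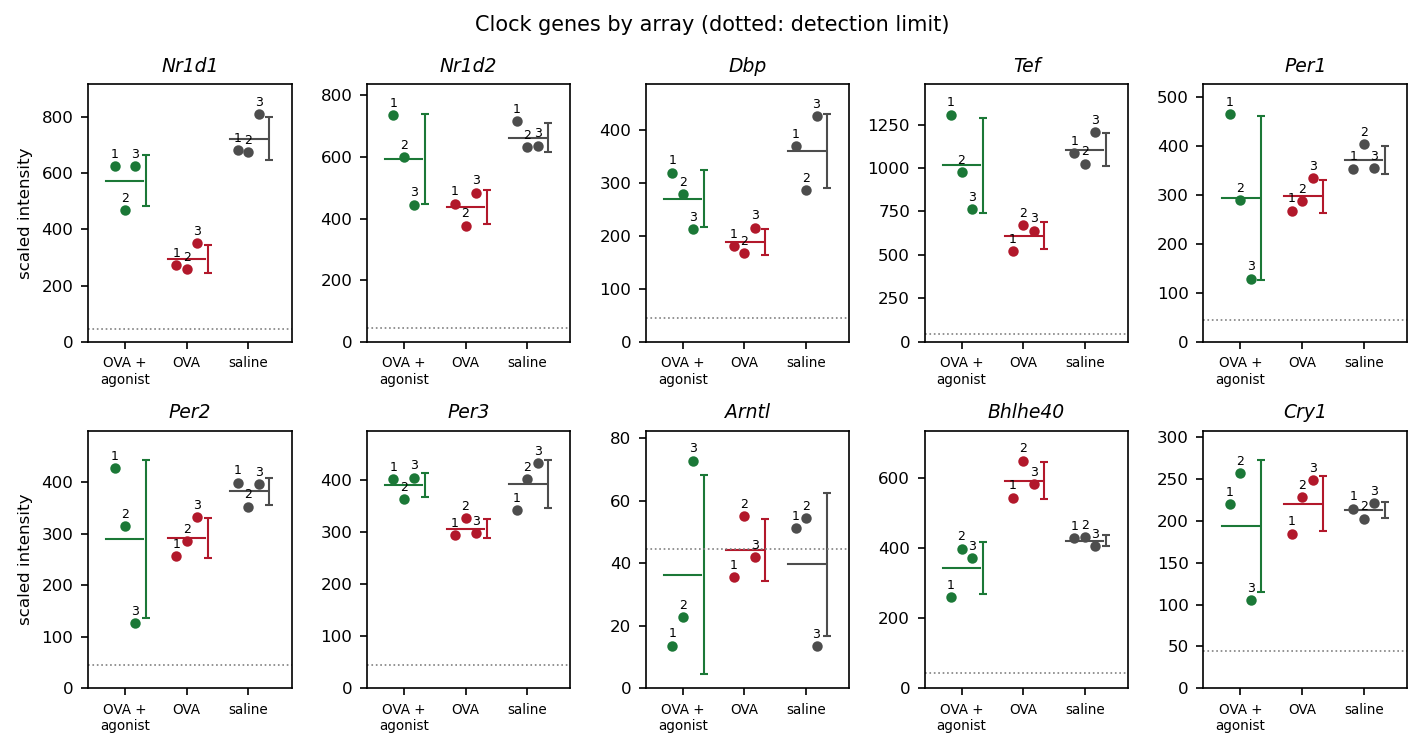
Scaled intensity (linear axis from 0, a scale of its own for each gene) of the 10 tested clock probe sets on each of the 9 arrays, with OVA plus agonist, OVA and saline from left to right. Points carry the replicate number, horizontal lines are group means, bars are 1 SD of 3 arrays, and the dotted line is the detection limit of 44.7. Nr1d1, Dbp and Tef sit lowest in the OVA group, Bhlhe40 highest, and the agonist points of Per1, Per2 and Cry1 spread widely with replicate 3 at the bottom.

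Nr1d1 had the lowest adjusted p of the 10 in both comparisons with OVA lung. Nr1d1 (98507_at, REV-ERB alpha) read 624, 467.9 and 624.6 on the agonist arrays 1, 2 and 3, 272.3, 257 and 349.6 on the OVA arrays, and 681.3, 672.8 and 808 on the saline arrays. All 3 OVA arrays lay far below the other 6, and all 3 agonist arrays lay between the OVA and the saline arrays. The OVA mean was 293 ± 49.6 and the saline mean 721 ± 75.7 (SD, n = 3 each), a log2 change of −1.31 ± 0.17 (SE), with an adjusted p of 0.00974 in limma. The agonist mean was 572 ± 90.3, and the log2 change of agonist from OVA was 0.97 ± 0.17 (adjusted p = 0.0397). The fall in OVA lung passed with any 1 array left out. The rise with agonist did not pass without OVA replicate 1 or 2, without agonist replicate 1 or 2, or without any 1 saline array (adjusted p of 0.0575 to 0.146), nor when only the 6 agonist and OVA arrays were fitted (0.116). Without agonist replicate 3 it was 0.90 (adjusted p = 0.0414).

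Nr1d2 (99076_at), which encodes the partner receptor REV-ERB beta, read 735.2, 600.7 and 445.2 on the agonist arrays, 449.1, 377.5 and 484.2 on the OVA arrays, and 715.7, 631.6 and 637.4 on the saline arrays. The OVA arrays lay below all saline arrays, while agonist replicate 3 fell among the OVA arrays and agonist replicate 1 above every saline array. The log2 change of OVA from saline was −0.60 ± 0.19 (adjusted p = 0.0816) and that of agonist from OVA 0.42 ± 0.19 (adjusted p = 0.22). Neither passed. Without agonist replicate 3, whose omission also changes the shared estimate of spread, OVA against saline passed at the same change (adjusted p = 0.0357) and agonist against OVA was 0.61 (adjusted p = 0.0584).

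Dbp and Tef, the activators that bind D-boxes, followed. Dbp (160841_at) read 319.2, 279 and 212.8 on the agonist arrays, 179.9, 167.2 and 215.6 on the OVA arrays, and 368.7, 285.7 and 425.4 on the saline arrays. The OVA arrays all lay below the saline arrays, and 1 agonist array, replicate 3, lay within the OVA range. The OVA mean was 188 ± 25.1 and the saline mean 359.9 ± 70.2, a log2 change of −0.93 ± 0.20 (adjusted p = 0.0335). The log2 change of agonist from OVA, with an agonist mean of 270.3 ± 53.7, was 0.52 ± 0.20 (adjusted p = 0.172). It was 0.68 (adjusted p = 0.0854) without agonist replicate 3.

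Tef (160117_at) read 1308, 974.6 and 764.1 on the agonist arrays, 522.2, 672.1 and 639.3 on the OVA arrays, and 1085, 1025 and 1208 on the saline arrays. The OVA arrays lay below all 6 others, and the agonist arrays overlapped the saline arrays. The OVA mean was 611 ± 78.8 and the saline mean 1106 ± 93, a log2 change of −0.86 ± 0.20 (adjusted p = 0.0379). Agonist from OVA, with an agonist mean of 1016 ± 274, was 0.71 ± 0.20 (adjusted p = 0.0891), and without agonist replicate 3 it passed at 0.89 (adjusted p = 0.0344). Both calls depended on which arrays entered. Dbp did not pass without any 1 saline array, OVA replicate 1 or 2, or agonist replicate 2 (adjusted p of 0.0519 to 0.11). Tef did not pass without any 1 saline or OVA array or agonist replicate 2 (0.0588 to 0.127).

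The repressors of the ARNTL and CLOCK pair behaved less alike. Per1 (93619_at), a period gene that also responds quickly to outside signals, read 465.5, 288.9 and 129 on the agonist arrays, 267.6, 287.4 and 334.5 on the OVA arrays, and 353.9, 404.2 and 354.9 on the saline arrays. Per2 (93694_at), the period gene most needed for a stable rhythm in mice, read 428.1, 315.4 and 126 on the agonist arrays, 256.7, 286.4 and 332.7 on the OVA arrays, and 399.2, 352.9 and 397.1 on the saline arrays. For both, the OVA arrays lay below all saline arrays, agonist replicate 1 was the highest of all 9 arrays and agonist replicate 3 the lowest. The log2 change of OVA from saline was −0.33 ± 0.40 for Per1 (adjusted p = 0.633) and −0.40 ± 0.40 for Per2 (adjusted p = 0.546). With only the 6 OVA and saline arrays in the fit, the same changes had an adjusted p of 0.146 for Per1 and 0.11 for Per2. The change of agonist from OVA was −0.19 for Per1 and −0.17 for Per2, and without agonist replicate 3 it was 0.31 (adjusted p = 0.401) and 0.34 (adjusted p = 0.262), so 1 array set its sign.

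On agonist replicate 3, Per1 was 2.07-fold and Per2 2.04-fold below the next lowest of the 9 arrays. No other clock gene was lowest there by as much, and 43 of the 7920 tested probe sets, or 0.543%, were. The share of probe sets that were lowest by at least 2-fold on one given array ran from 0.278% on OVA replicate 3 to 0.758% on agonist replicate 1. No clock gene was lowest by 2-fold on an array other than agonist replicate 3. That array was singled out after the values were seen, so these shares are descriptive. With no minimum, 3 clock genes were lowest on agonist replicate 3, where 9.53% of all tested probe sets were. On OVA replicate 2 it was 3 (14.5% of all), and on OVA replicate 1 it was 2 (21.3%).

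Per3 (102242_at), a period gene that mouse clocks can run without, read 402.9, 364.5 and 405.2 on the agonist arrays, 295.1, 327.6 and 298.5 on the OVA arrays, and 342.9, 401.9 and 432.8 on the saline arrays. All 3 OVA arrays lay below the other 6, by a small margin. The log2 change of OVA from saline was −0.35 ± 0.11 (adjusted p = 0.0836) and that of agonist from OVA 0.35 ± 0.11 (adjusted p = 0.111). Unlike Per1 and Per2, Per3 was not low on agonist replicate 3, where it had its highest agonist value.

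Cry1 (94420_f_at), a cryptochrome, which acts together with the period proteins, read 219.7, 256.8 and 105.3 on the agonist arrays, 184.6, 228.1 and 248.5 on the OVA arrays, and 214.6, 202.6 and 221.4 on the saline arrays. The 3 groups overlapped, and agonist replicate 3 was again the lowest of all, 1.75-fold below the next. The log2 change of OVA from saline was 0.04 ± 0.31 (95% interval −0.68 to 0.76, adjusted p = 0.944). Agonist from OVA was −0.27 ± 0.31 (adjusted p = 0.627), and 0.12 (adjusted p = 0.659) without agonist replicate 3. The letter f in the probe set's name is the maker's mark for probes that can match a family of sequences, and signal from relatives of Cry1 cannot be told apart here.

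Bhlhe40 (104701_at) encodes DEC1, a repressor that competes for E-boxes and is also made by activated immune cells. It read 259.4, 398.2 and 371.4 on the agonist arrays, 543.8, 648.8 and 582 on the OVA arrays, and 428.3, 431.2 and 404.3 on the saline arrays. It was the only 1 of the 10 for which the OVA arrays lay above all others, and the agonist arrays lay below all saline arrays. The agonist mean was 343 ± 73.7 and the OVA mean 592 ± 53.2, a log2 change of −0.81 ± 0.16 (adjusted p = 0.0491). OVA from saline (421 ± 14.7) was 0.49 ± 0.16 (adjusted p = 0.0986), which did not pass, though it did with only those 6 arrays in the fit (0.0441) and without agonist replicate 1 (0.0341). The fall with agonist passed without agonist replicate 3 (−0.88, adjusted p = 0.0416). It did not pass without any other single array (adjusted p of 0.0738 to 0.146) or with only the 6 agonist and OVA arrays (0.139).

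Arntl (102382_at), the activator at the head of the loop, was dim. It read 13.64, 22.69 and 72.84 on the agonist arrays, 35.51, 55.1 and 42.07 on the OVA arrays, and 51.28, 54.39 and 13.47 on the saline arrays. Only 4 of the 9 arrays exceeded the detection limit: agonist replicate 3, OVA replicate 2 and saline replicates 1 and 2. The groups overlapped, and the intervals were wide: the log2 change was 0.38 ± 0.72 for OVA from saline (95% interval −1.29 to 2.04, adjusted p = 0.765) and −0.62 ± 0.72 for agonist from OVA (−2.29 to 1.04, adjusted p = 0.632), or −1.31 without agonist replicate 3 (adjusted p = 0.24). A difference in Arntl was not detectable at this signal. With every value below the limit raised to it, the changes were −0.06 and 0.13, opposite in sign.

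**Figure D2:**
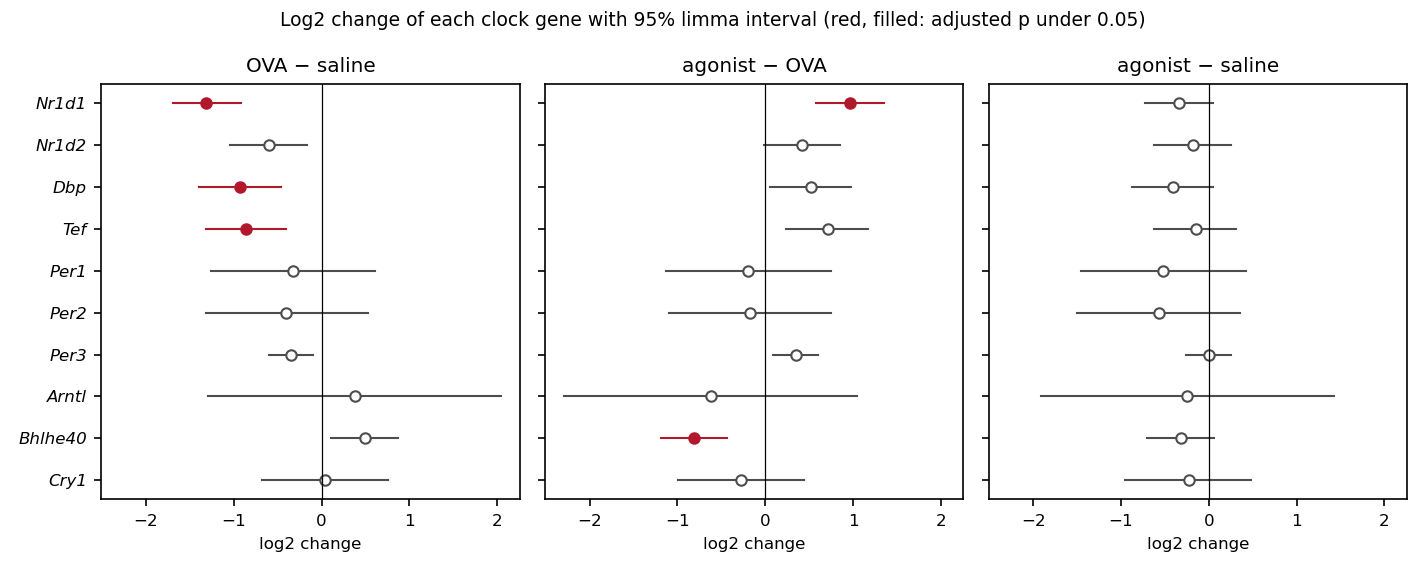
Log2 change (horizontal axis) of the 10 tested clock probe sets, with 95% limma intervals, for OVA minus saline, agonist minus OVA and agonist minus saline from left to right. Filled red points have an adjusted p under 0.05: Nr1d1, Dbp and Tef below 0 in the left panel, Nr1d1 above and Bhlhe40 below 0 in the middle panel, and none in the right panel.

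With the agonist, 1 of the 10 clock genes rose and 1 fell relative to OVA lung, where 1.25% of all probe sets rose and 1.50% fell. The agonist arrays lay above all OVA arrays for Nr1d1, Tef and Per3, 3 of 10, where 17.8% of all probe sets did so. They lay below them for Bhlhe40, 1 of 10, where 12.0% did. Both comparisons use the same OVA arrays, so their changes are not independent of each other: for Nr1d1 they were −1.31 for OVA from saline and 0.97 for agonist from OVA, for Bhlhe40 0.49 and −0.81, for Tef −0.86 and 0.71, and for Dbp −0.93 and 0.52.

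Agonist lung was also set against saline lung directly. Limma called 0 of the 10 clock genes, 0 of them had an unadjusted p under 0.05, and 0.0758% of all tested probe sets were called. The closest were Nr1d1, at −0.34 ± 0.17 (95% interval −0.73 to 0.05, adjusted p = 0.688), Dbp, at −0.41 ± 0.20 (−0.88 to 0.05, adjusted p = 0.688), and Bhlhe40, at −0.32 ± 0.16 (−0.70 to 0.06, adjusted p = 0.688). The agonist arrays lay below all saline arrays for 2 clock genes, Nr1d1 and Bhlhe40, where 7.03% of probe sets did, and above them for 0, where 6.65% did. The intervals leave room for sizeable differences in the other genes: −1.45 to 0.42 for Per1, −1.50 to 0.35 for Per2 and −0.62 to 0.31 for Tef. Without agonist replicate 3, whose inclusion gave a log2 change of −0.52 for Per1 and −0.57 for Per2, these changes were −0.01 and −0.06. For Per3 the interval was −0.26 to 0.25.

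The spread of the clock genes within groups was compared next. On the log2 scale the SD of 3 arrays was largest in the agonist group for 9 of the 10, where it was so for 39.1% of all tested probe sets. For Per1 it was 0.94 in the agonist, 0.16 in the OVA and 0.11 in the saline group, and for Per2 0.92 in the agonist, 0.19 in the OVA and 0.10 in the saline group. Cry1 had 0.69 in the agonist, 0.22 in the OVA and 0.07 in the saline group. The margin was slight for others of the 9. Nr1d1 had 0.24 in both the agonist and the OVA group, and Dbp 0.30 in the agonist and 0.29 in the saline group. The dim Arntl had 1.24 in the agonist and 1.14 in the saline group. The exception was Per3, with 0.09 in the agonist, 0.08 in the OVA and 0.17 in the saline group. This rests in part on agonist replicate 3: without it, an alternative chosen after seeing the data, the agonist SD was widest for 6 of the 10 and for 28.4% of all probe sets. The agonist SD of the remaining 2 arrays was then 0.49 for Per1, 0.31 for Per2 and 0.16 for Cry1, which lies below the 0.22 of the OVA group.

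**Figure D3:**
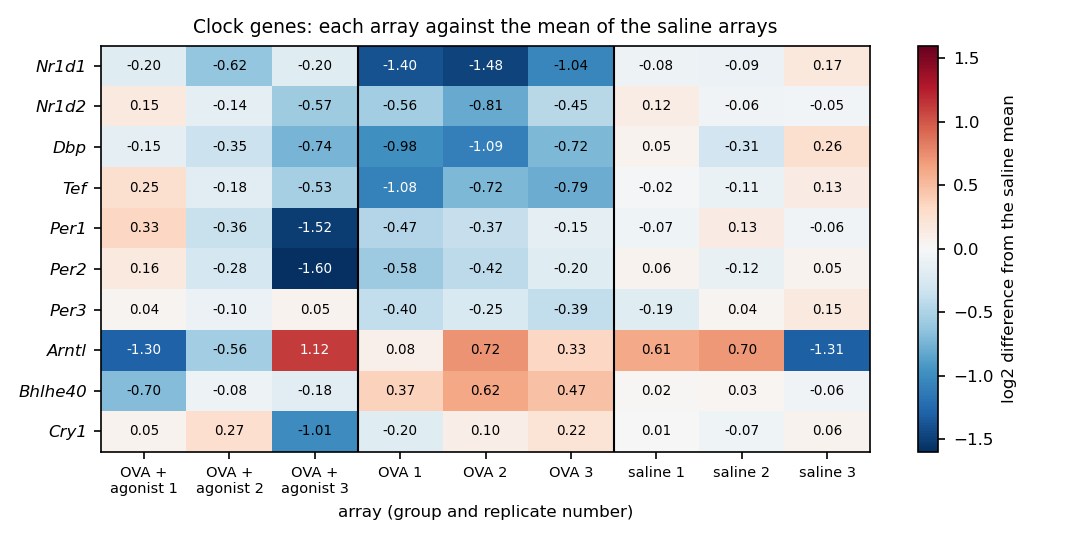
Log2 difference of each array from the mean of the 3 saline arrays (colour and printed number) for the 10 tested clock probe sets (rows) on the agonist, OVA and saline arrays (columns, left to right). The OVA columns are blue for Nr1d1, Nr1d2, Dbp and Tef. Per1, Per2 and Cry1 are darkest blue on agonist replicate 3, at −1.52, −1.60 and −1.01, where Arntl is red at 1.12.

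Some pairs of the genes moved together over the arrays, and others did not. Over the 9 arrays, which share their scaling and include the differences between groups, Pearson's r of log2 values was 0.97 for Per1 with Per2 (0.87 without agonist replicate 3), 0.91 for Nr1d2 with Dbp (0.90), 0.90 for Dbp with Tef (0.90) and 0.87 for Nr1d1 with Dbp (0.97). Bhlhe40 ran opposite to Tef, at −0.77 (−0.84), and to Nr1d1, at −0.74 (−0.73). Cry1 followed Per2 at 0.86 over 9 arrays but at 0.17 without agonist replicate 3. Nr1d1 and Per1 did the reverse, with 0.16 over 9 arrays and 0.73 without that array. Per3 was near 0 with Per1, at 0.03 (0.67), and with Per2, at 0.02 (0.71). Arntl was at −0.28 with Nr1d1 (−0.44 without that array) and −0.57 with Dbp (−0.53). Most of its values lie below the detection limit, so these r values rest largely on dim signal.

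Some genes outside the clock list had profiles still closer to those of 3 clock genes taken by role: the repressor Nr1d1, the output factor Dbp and the activator Arntl. Over the 9 arrays the genes most like Nr1d1 were Pmp22, a myelin and epithelial membrane protein (r = 0.992), Pald1 (0.991) and Acvrl1, a receptor of the TGF-beta family in endothelium (0.984). Those least like it were the histone variant gene H2az1 (−0.986), Clip4 (−0.984) and Slc25a39 (−0.977). Most like Dbp were Fxyd1, a regulator of the sodium pump (0.978), Igfbp3, which binds insulin-like growth factors (0.972), and Pttg1ip (0.970). Least like Dbp were the chemokine Ccl22 (−0.976), Emp3 (−0.973) and Ly86, a surface protein of B cells and macrophages (−0.972). For Arntl, most of whose values lie below the limit, they were Ebna1bp2 (0.932), Ikzf1 (0.922) and H2-Oa (0.910) at one end, and Grin2c (−0.956), Phldb1 (−0.948) and Rras (−0.916) at the other. These r values are the extremes among all named probe sets tested, and describe these 9 arrays.

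Lists of other clock genes were set beside the 10. Of 5 other clock transcription factors tested, of 6 on the array and 12 listed, 1 fell and 0 rose in OVA lung, with a median log2 change of −0.43 where that of all probe sets was −0.08. Rora, which activates Arntl at the element that REV-ERB proteins repress, was the one that fell: it read 184.6, 184 and 151.2 on the agonist arrays, 121, 103.3 and 145.8 on the OVA arrays and 194, 174.6 and 193.1 on the saline arrays. Its log2 change of OVA from saline was −0.61 ± 0.15 (adjusted p = 0.041), and all OVA arrays lay below the other 6. Cry2, the other cryptochrome, was at −0.74 (adjusted p = 0.0833) and Clock, the partner of Arntl, at −0.43 (adjusted p = 0.143). Timeless, which mammals need for copying DNA, was at 0.73 ± 1.58 (adjusted p = 0.795), with most of its arrays below the detection limit. Npas2, which can stand in for Clock, did not exceed the detection limit on any array. With agonist, 0 of the 5 passed against OVA, and the median was 0.32 (all probe sets 0.06), with Timeless at −1.69 ± 1.58 (adjusted p = 0.553), Cry2 at 0.67 (adjusted p = 0.137) and Rora at 0.50 (adjusted p = 0.0962). Against saline 0 passed, with a median of −0.12 (all probe sets 0.00).

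Of 8 kinases, ubiquitin ligases and cofactors that act on clock proteins, 0 passed in any of the 3 comparisons. Their median was −0.21 for OVA from saline, 0.10 for agonist from OVA and −0.04 for agonist from saline. In OVA lung Btrc, a ligase that marks period proteins for breakdown, was at −0.61 (adjusted p = 0.0973), and Csnk1e, a kinase that phosphorylates them, at −0.59 (adjusted p = 0.116). Of 11 output genes of the clock, 0 passed in any comparison, with medians of −0.23 for OVA from saline, 0.21 for agonist from OVA and −0.06 for agonist from saline. Usp2, a deubiquitinating enzyme, was at −1.02 ± 0.66 in OVA lung (adjusted p = 0.343), Lpin1, an enzyme of fat synthesis, at −0.89 ± 0.32 (adjusted p = 0.112) and Alas1, the first enzyme of heme synthesis, at −0.54 ± 0.16 (adjusted p = 0.0779). These genes are named for the size of their change. Their OVA arrays lay below all saline arrays in each case, as did those of 22.0% of all tested probe sets.

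Glucocorticoid-induced genes were included because the glucocorticoid receptor also acts on Per1, and immediate early genes because Per1 answers the same fast signals. Of 15 glucocorticoid-induced genes, 2 of them counted among the outputs too, 0 passed in any comparison, with medians of −0.40 for OVA from saline, 0.33 for agonist from OVA and 0.05 for agonist from saline. The leading ones in OVA lung were Zbtb16, at −1.46 ± 0.64 (adjusted p = 0.176), Map3k6, at −1.12 ± 0.56 (adjusted p = 0.225), and Angptl4, at −0.78 ± 0.22 (adjusted p = 0.0628). Of 9 immediate early genes, Jun fell in OVA lung (−0.55 ± 0.13, adjusted p = 0.0454) and the other 8 did not pass, with a median of −0.09. Against OVA, 0 of them passed with agonist (median 0.04), where Atf3 was at −0.74 (adjusted p = 0.0565). Against saline 0 passed either (median −0.21).

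Within the agonist group, 5 of the 10 clock genes (Nr1d2, Dbp, Tef, Per1 and Per2) were highest on replicate 1, intermediate on replicate 2 and lowest on replicate 3, as were 20.1% of all tested probe sets. Per1 and Per2 spanned at least 2-fold in that pattern, as did 2.20% of all. This was noticed after the values were seen. The glucocorticoid-induced genes differed between the same arrays: 10 of 15 had the pattern, 8 of them by at least 2-fold, and their summed intensity was 13532, 9076 and 6200.3 on agonist replicates 1, 2 and 3, 7798 to 8256 on the OVA arrays and 8683 to 10092 on the saline arrays. Zbtb16 read 2321, 676.5 and 357.5 on the agonist arrays, 167.2, 281.1 and 379.7 on the OVA arrays and 641, 661.2 and 881.3 on the saline arrays. Fkbp5, an inducible chaperone of the glucocorticoid receptor, read 649.5, 62.78 and 81.48 on the agonist arrays, 70.29 to 106.9 on the OVA arrays and 90.82 to 193.3 on the saline arrays. Agonist replicate 1 stood out for both. Of the immediate early genes 1 of 9, Jun, had the pattern, and their summed intensity was 1877, 2667 and 1686 on the agonist arrays. The part of these differences between arrays in the values of Per1 and Per2 was not tested.

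**Figure D4:**
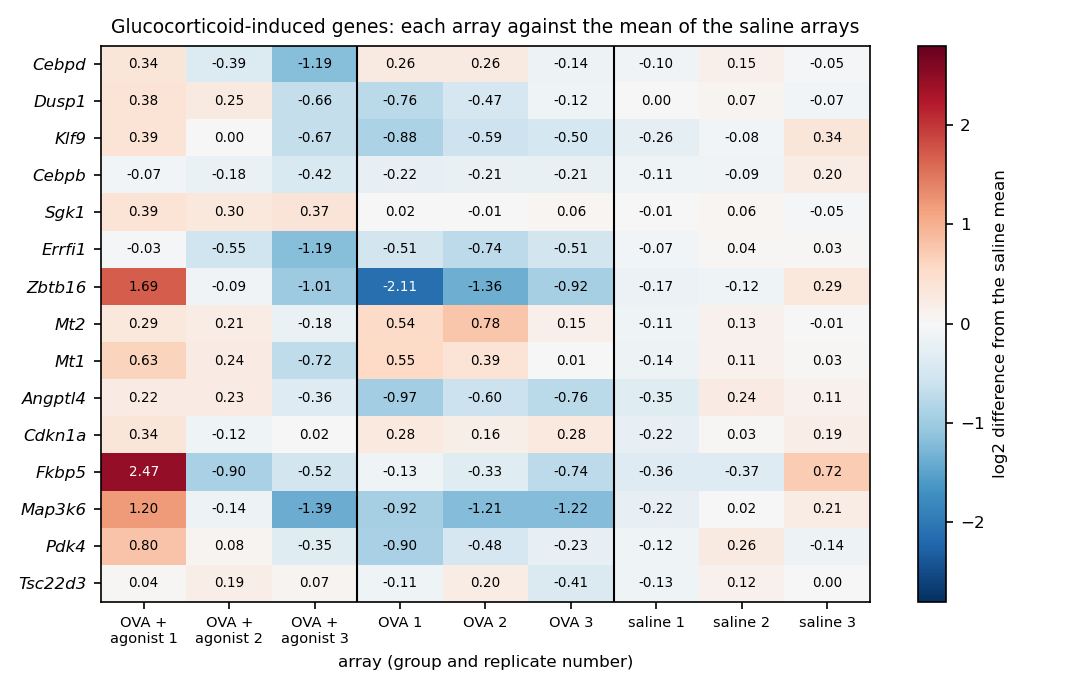
Log2 difference of each array from the mean of the 3 saline arrays (colour and printed number) for 15 glucocorticoid-induced genes (rows) on the agonist, OVA and saline arrays (columns, left to right). On agonist replicate 1 Zbtb16, Fkbp5 and Map3k6 are red, at 1.69, 2.47 and 1.20, and on agonist replicate 3 Map3k6, Cebpd, Errfi1 and Zbtb16 are blue, at −1.39, −1.19, −1.19 and −1.01 (Cebpd and Errfi1 are named after their values were seen).

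Markers of several cell types, though not of all, differed between the same groups. In bulk lung RNA, fewer cells of a type and less RNA per cell cannot be told apart. Of all tested probe sets, 5.08% rose and 4.42% fell in OVA lung, and 1.25% rose and 1.50% fell with agonist relative to OVA. All 10 tested markers of macrophages and dendritic cells, of 12 on the array, rose in OVA lung. Their summed intensity was 4737, 4512 and 8697 on the agonist arrays, 11954 to 13514 on the OVA arrays and 3461 to 3813 on the saline arrays, so agonist replicate 3 lay between the OVA arrays and the rest. Against OVA, 3 of the 10 fell with agonist. The macrophage gene Marco was not above the limit on any array. Of 10 endothelial markers, 6 fell in OVA lung, and 3 rose with agonist relative to OVA. Vwf, which was not called, went the other way in OVA lung, with a log2 change of 0.42. The sum of the 10 was 13773 to 14265 on the agonist arrays, 10511 to 11276 on the OVA arrays and 13647 to 14042 on the saline arrays. In OVA lung, 2 of 4 alveolar type 2, 3 of 4 alveolar type 1 and 2 of 3 club cell markers tested fell. So did 2 of 6 fibroblast, 2 of 3 adipose and 2 of 2 red cell markers. Of smooth muscle markers 2 of 5 rose, of B cell markers 1 of 4, and 0 of 3 T cell markers were called. Relative to OVA, 2 adipose markers rose with agonist, as did 1 each of alveolar type 2, alveolar type 1, club, fibroblast and red cell. Smooth muscle, B cell and T cell lists then had 0 calls.

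Of 8 tested heart muscle markers, 5 fell in OVA lung and 1 rose with agonist relative to OVA. The sum of the list was 4400.2 to 5078 on the agonist, 3334 to 4084 on the OVA and 4421 to 5357 on the saline arrays. Actc1 made up much of these sums and was not called, with means of 2505 in agonist, 2416 in OVA and 2295 in saline lung. The heart muscle marker Ryr2 was not above the limit on any array. Neutrophil markers summed to 4209.6, 761.4 and 3719 on agonist replicates 1, 2 and 3, 808.1 to 986.1 on the OVA arrays and 720.6 to 777.5 on the saline arrays, with 0 of 5 called in any comparison. In agonist and OVA lung, S100a8 averaged 1532 and 342, and S100a9 averaged 950.1 and 117. Camp, at 336 and 239, and Ltf, at 227 and 235, differed less, so the sum does not speak for the whole list. Ly6g and Ngp were not above the limit on any array. Of 5 eosinophil genes on the array, Prg2, Epx and Il5ra were not above it either, and 1 was tested. That was Alox15, a lipoxygenase of eosinophils and macrophages, which averaged −16.1 ± 16.5 in agonist, 197 ± 84.8 in OVA and −32.3 ± 3.72 in saline lung (SD, n = 3 each). It was higher in OVA than in saline lung (limma adjusted p = 0.000106) and lower in agonist than in OVA lung (7.98e-05). For the test its agonist and saline values were all raised to the floor of 3.1. These groups then had no spread, which lowers both p-values, and the SDs printed here are not those of the test. The summed intensity of the 5 eosinophil genes was −56.16 to −14.23 on the agonist arrays, 84.95 to 253.4 on the OVA arrays and −78.08 to −58.36 on the saline arrays. The part of cell makeup, or of the hour of collection, in the falls of Nr1d1, Dbp and Tef was not tested. Nor was their part in the differences of Nr1d1 and Bhlhe40 with agonist.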

How the data were processed

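Values were taken from the table of 1 intensity per probe set and array that the authors deposited. They are on a linear scale with some values below 0. What was subtracted, how probes were summarized and how arrays were scaled is not given in the sources used here. Column medians were 66.4, 77.5 and 62.9 on the agonist, 105, 79.2 and 86.9 on the OVA and 93.2, 75.6 and 66 on the saline arrays. Each array was scaled by a factor of 0.741 to 1.29 to a common 2% trimmed mean. Values under 3.1 (the 20th percentile) were raised to it and log2 was taken. Probe sets with at least 3 of 9 arrays above 44.7 (the 40th percentile) were tested, without 66 controls. Of the others, 10833 carry 1 symbol, 396 several and 1193 none in the platform annotation.

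All 9 arrays entered 1 fit in limma 3.58.1 (R 4.3.3, lmFit and eBayes, 6 residual and 1.69 prior degrees of freedom). P-values are two-sided, with Benjamini-Hochberg adjustment over 7920 probe sets and a threshold of 0.05. The number of arrays limits precision. The procedure was also run on simulated data with independent normal noise. That run held no array that stood apart from its group, so it does not bear on agonist replicate 3. Every clock probe set is named. Of each other list up to 4 genes per comparison are named, those that passed ahead of the rest and then by size, from the brightest probe set per gene. Vwf and Actc1 are named because they did not follow the called markers of their lists. The members and lists were chosen with earlier results of these data known. Alternatives were other scalings, floors, filters, variance models, thresholds, each array left out, the 6 arrays compared alone, a replicate block and gene means over probe sets.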

Additional observations from a re-analysis of the deposited data

How the results depend on the processing

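The fall of Nr1d1 in OVA lung passed in all 19 alternative fits (adjusted p of 0.00478 to 0.0472). Those of Dbp and Tef did not pass in 8 and 10 of 19. With agonist, Nr1d1 did not pass in 10 and Bhlhe40 in 12 of 19. Testing all probe sets without the filter gave an adjusted p of 0.0549 for Dbp and 0.0633 for Tef in OVA lung, and 0.0514 for Nr1d1 and 0.0647 for Bhlhe40 with agonist. Equal medians gave 0.0507 for Tef, and no floor gave 0.0505 for Bhlhe40. The number of clock genes called between OVA and saline, 3, became 1 without the filter, 1 with the replicate block, 5 with only the 6 arrays compared, 6 at an adjusted p of 0.1 and 1 with a 2-fold minimum. It ran from 1 to 4 with each array left out. Between agonist and OVA the count of 2 became 1 with no floor, and 0 without the filter, with the replicate block, with only the 6 arrays and with the 2-fold minimum, and ran from 0 to 3 with each array left out. Over all probe sets, the counts of 752, 218 and 6 in the 3 comparisons (OVA and saline, agonist and OVA, agonist and saline) were 50, 14 and 2 with the replicate block. They were 634, 18 and 4 with only the 6 arrays, 80, 7 and 7 without OVA replicate 1, and 857, 526 and 9 without agonist replicate 3. Same-numbered arrays deviated together with r of −0.139 to 0.169 across probe sets, so the numbers were not taken to pair samples.

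With the floor at the 40th percentile the log2 change of Arntl was −0.06 for OVA from saline, 0.13 for agonist from OVA and 0.07 for agonist from saline, since most of its values lie under that floor. Equal medians gave 0.02 for Per3 between agonist and saline. With each array left out, the change of OVA from saline ran from −0.28 to 0.73 for Arntl and from −0.05 to 0.16 for Cry1. That of agonist from OVA ran from −0.61 to 0.31 for Per1, −0.54 to 0.34 for Per2 and −0.52 to 0.12 for Cry1. That of agonist from saline ran from −0.35 to 0.01 for Nr1d2, −0.35 to 0.03 for Tef, −0.10 to 0.07 for Per3, −0.93 to 0.28 for Arntl and −0.48 to 0.16 for Cry1. For Arntl the signal over background limits any statement.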
